A study of Homo sapiens with 6 samples.

Results

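Nuclei of teratomas grown from DATG cells were compared with nuclei of teratomas grown from KO cells, with 2 libraries in each group and no other library in the test. The 4 libraries were chosen by their labels, 4 of the 6 in the series. They held 36234 human nuclei of 43199 barcodes, out of 54030 human nuclei in the whole series. H1 is an established line of human embryonic stem cells. KO is H1 with lncPRESS1 knocked out, and DATG is H1 with an altered lncPRESS1 named ΔATG, a change that the labels do not describe further. Cells of both groups were mixed with matrigel and grown in the flank of NSG mice, which lack most of their own immune cells, and the tumours were frozen before nuclei were isolated. Animal age, tumour age, the number of clones and whether a group's libraries came from separate tumours are not given in the labels, so p-values measure only the spread between these libraries.

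A teratoma is a tumour that pluripotent cells form in a host animal, and it holds neural, epithelial, muscle, cartilage and other tissues side by side. LNCPRESS1 is a long non-coding RNA of human pluripotent cells, described as binding the histone deacetylase SIRT6. Imprinted genes are transcribed from 1 parental allele. KRAB zinc finger proteins are a large family of DNA-binding repressors, many of them encoded in clusters on chromosome 19.

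A barcode counted as a human nucleus when it held at least 500 unique molecular identifiers (UMIs, each standing for 1 captured RNA molecule) and 300 genes on the human reference and when at least 90% of its UMIs were human. In this account, 2 values for a group are always those of library 1 and library 2, in that order. Human nuclei numbered 10096 and 7945 in KO and 12103 and 6090 in DATG, and their human UMIs numbered 37740054 and 40973645 in KO and 43876948 and 24827688 in DATG. DATG library 2 stood apart. The share of barcodes that mixed both species was 4.75 and 7.62% in KO and 7.36 and 35.5 in DATG. The share of mouse UMIs in nuclei counted as human was 0.501 and 0.618% in KO and 0.543 and 2.34 in DATG. Pearson's r of log2 CPM (counts scaled to a common library total) across genes was 0.986 between the KO libraries and 0.986 between KO library 2 and DATG library 1, but 0.926 between the DATG libraries and 0.891 between KO library 1 and DATG library 2. Genes are not independent replicates, so these values describe the libraries only. Between 7 and 37 barcodes were shared by any pair of libraries, at most 0.366% of the smaller library.

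LNCPRESS1 (chr7:101299578-101301346, plus strand, GRCh38, GENCODE 29) was close to undetected everywhere. It gave 3 and 0 UMIs in the KO libraries and 1 and 3 in the DATG libraries, while the WT libraries gave 9 and 3. With 0 UMIs in KO library 2, a level of up to 0.0732 CPM is possible there, which covers counting error only. The log2 difference of DATG from KO was 0.78 (SE 1.59, edgeR quasi-likelihood adjusted p = 0.903). At this depth the transcript neither checks the labels nor separates the groups.

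The groups were compared gene by gene on UMIs summed over the human nuclei of each library, scaled by the TMM method of edgeR. Levels are given as TMM-scaled CPM, and differences as the log2 ratio of DATG to KO with its standard error (SE). Of 26307 genes tested, out of 38606 human features, edgeR's quasi-likelihood test called 0 higher and 0 lower at an adjusted p under 0.05. Its smallest adjusted p was 0.817, 731 genes had an unadjusted p under 0.05, and the common biological coefficient of variation, fitted over all genes, was 44.3%. DESeq2 called 33 genes higher (0.125% of genes tested) and 11 lower (0.0418%) on the same counts, with 1270 at an unadjusted p under 0.05. Without DATG library 1, edgeR called 3559 higher and 5353 lower, with the lone DATG library assumed to vary as the KO pair does. Without DATG library 2 it called 8 and 1.

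The direct form of the comparison asks in which genes both DATG libraries lay beyond both KO libraries. That held upward for 5411 genes (20.6% of genes tested) and downward for 5633 (21.4%), and these shares are the background for every count below. Scaled by plain library totals, which moved the median difference of all genes from 0.02 to -0.10, the split was 4196 upward and 6621 downward. Just inside the upward rule was ZNF573, at 24.5 and 27.6 CPM in KO and 28.6 and 27.6 in DATG, and just outside was ECI2, at 21.1 and 21.7 in KO and 23.1 and 21.7 in DATG. Downward, PDE1B was just inside at 8.15 and 6.14 CPM in KO and 6.14 and 3.74 in DATG, and KHDC4 was just outside at 63.1 and 63.6 in KO and 55.3 and 63.1 in DATG. Among 14793 genes with a mean of at least 5 CPM, 3486 lay above and 2590 below. Most of these margins were narrow: the gap, which is the log2 difference between the DATG and KO libraries nearest to each other (0.5 CPM added to each), exceeded 1 in 37 genes upward and 29 downward.

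**Figure D1:**
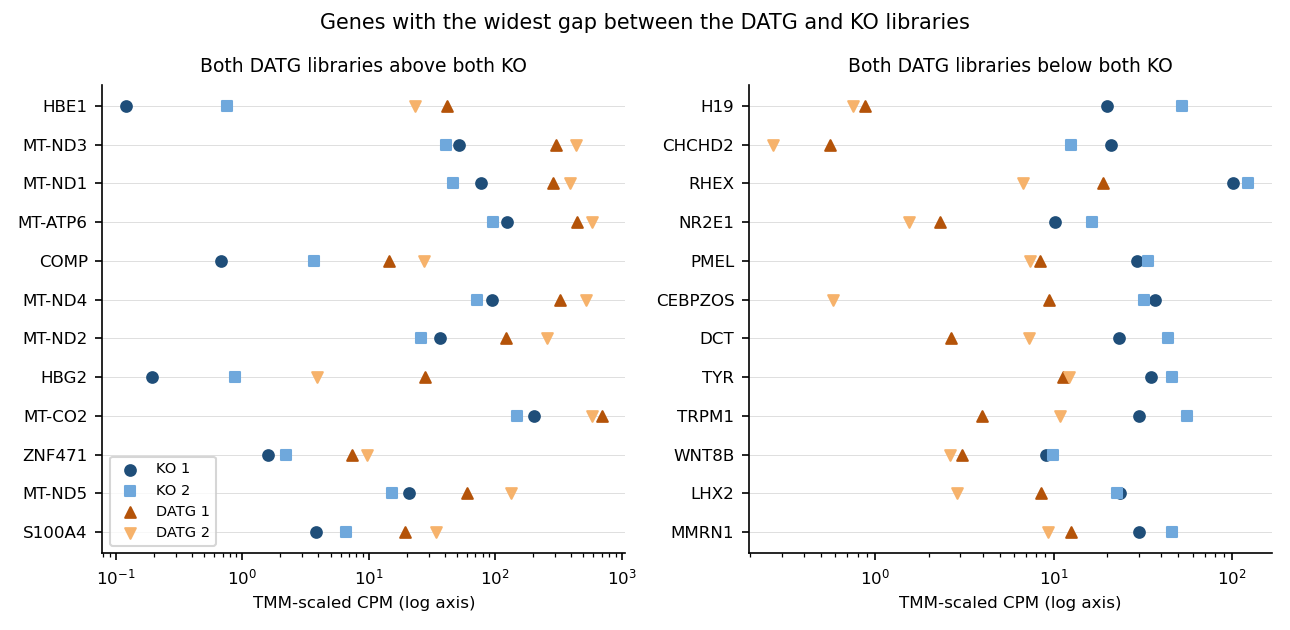
TMM-scaled CPM (log axis) of the 24 genes with the widest gap between the groups, 12 per direction, with 1 point for each KO and DATG library. H19 and CHCHD2 have the widest downward gaps (3.88 and 3.62), and HBE1 and the mitochondrially encoded genes lead upward.

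CHCHD2 encodes a protein of the mitochondrial intermembrane space with a role in respiration. It stood at 20.9 and 12.6 CPM in KO and 0.563 and 0.267 in DATG, from 865 and 511 UMIs in KO and 25 and 6 in DATG. Both DATG libraries lay far below either KO library, and the group means were 16.7 ± 5.91 and 0.415 ± 0.209 CPM (SD, n = 2 each). The log2 difference was -5.28 (SE 0.61), with an adjusted p of 6.24e-13 by DESeq2 and 0.817 by edgeR. CHCHD2 (chr7:56101569-56106576, minus strand) has processed pseudogenes, so reads that match several copies could have been lost or split, in all libraries alike. The WT libraries, from a fit of all 6, stood at 12.1 and 21.8 CPM, near the KO level.

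The low level of CHCHD2 in DATG held in every kind of nucleus examined. Nuclei were clustered, and clusters were named "-like" from marker genes. Of the resulting groups, 8 (7 named classes and the unnamed clusters together) had at least 50 nuclei in each library. These groups are parts of the same libraries, so a difference seen in many groups is not thereby replicated. The smallest, chondrocyte-like nuclei of DATG library 2, held 61 nuclei, and low levels in such small groups rest on few UMIs. Within them CHCHD2 ranged from 9.66 to 25.8 CPM in KO and from 0 to 2.08 CPM in DATG, with both DATG libraries below both KO libraries in 8 of 8. In neuron-like nuclei, for example, 147 and 94 UMIs were counted in KO against 1 and 0 in DATG. Level within a class is given as plain CPM of that class. Of 9 tested genes that start within 500 kb of CHCHD2, 1 lay above and 2 below, CHCHD2 included. The other gene below was PHKG1, encoding a subunit of phosphorylase kinase, which starts 13.6 kb away (picked with its values in view). It stood at 16.8 and 11.8 CPM in KO and 9.27 and 1.74 in DATG, a log2 difference of -1.37 (SE 0.85) and of -0.63 without DATG library 2, and it too was lower in DATG in 8 of 8 groups of nuclei.

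A pair of neighbouring genes on chromosome 19 showed the opposite pattern. ZNF667 (chr19:56439325-56478065, minus strand) encodes a KRAB zinc finger protein, and ZNF667-AS1 (chr19:56477250-56500666, plus strand) is a non-coding RNA that starts next to it in the opposite direction. They come from a list of 6 genes taken from an earlier account of KO against WT, a comparison that shares the KO libraries, so their direction is a description only. ZNF667 stood at 0.266 and 0.123 CPM in KO and 7.16 and 7.35 in DATG, from 11 and 5 UMIs in KO and 318 and 165 in DATG. ZNF667-AS1 stood at 0.532 and 0.393 CPM in KO and 8.66 and 4.94 in DATG. Both DATG libraries lay far above both KO libraries for each gene of the pair. The log2 differences were 5.196 (SE 0.62) and 3.87 (SE 0.57), with DESeq2 adjusted p of 6.05e-11 and 2.54e-06 and an edgeR adjusted p of 0.817 for each. WT libraries, at 7.02 and 8.68 CPM for ZNF667, were at the level of DATG.

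ZNF471, another KRAB zinc finger gene (chr19:56507843-56530221, plus strand), starts 29.8 kb from ZNF667. It stood at 1.60 and 2.24 CPM in KO and 7.40 and 9.79 in DATG, a log2 difference of 2.16 (SE 0.44, DESeq2 adjusted p = 0.0238, edgeR 0.817). The 3 genes were higher in both DATG libraries in 8 of 8 groups of nuclei. Over these groups ZNF667 ranged from 0 to 1.58 CPM in KO and from 2.08 to 14.8 CPM in DATG. In neuron-like nuclei ZNF667 gave 1 and 0 UMIs in KO and 67 and 9 in DATG, and groups with fewer nuclei rest on few UMIs. Of 22 tested genes that start within 500 kb of ZNF667, 5 lay above and 4 below, counting the 3 described. Over all genes tested, 20.6% lay above and 21.4% below. ZSCAN5A, a neighbour at 109.7 kb picked with its values in view, was among those above, at 59.9 and 66.8 CPM in KO and 77.2 and 73.0 in DATG.

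The genes whose promoters are shown were among those that differed between the groups in all 8 groups of nuclei and by wide margins. IGF2 and ZNF471 also did so, and their promoters are not shown. The promoters shown are those of CHCHD2, H19, ZNF667 and ZNF667-AS1. Each is the window from 250 bases before to 50 after the start, from RefSeq on GRCh38.p14, printed 5′ to 3′ on the gene's own strand. Every CG dinucleotide, the site of DNA methylation, is in capitals. The windows are chr7:56106427-56106726 (minus strand) for CHCHD2, chr11:2001217-2001516 (minus strand) for H19, chr19:56477296-56477595 (minus strand) for ZNF667 and chr19:56477624-56477923 (plus strand) for ZNF667-AS1.
CHCHD2: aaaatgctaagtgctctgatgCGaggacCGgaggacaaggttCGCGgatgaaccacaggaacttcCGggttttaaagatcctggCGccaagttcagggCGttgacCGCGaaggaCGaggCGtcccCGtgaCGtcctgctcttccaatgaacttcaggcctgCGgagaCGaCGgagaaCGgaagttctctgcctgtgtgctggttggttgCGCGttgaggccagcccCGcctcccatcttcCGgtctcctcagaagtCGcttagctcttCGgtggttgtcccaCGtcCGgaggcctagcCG
H19: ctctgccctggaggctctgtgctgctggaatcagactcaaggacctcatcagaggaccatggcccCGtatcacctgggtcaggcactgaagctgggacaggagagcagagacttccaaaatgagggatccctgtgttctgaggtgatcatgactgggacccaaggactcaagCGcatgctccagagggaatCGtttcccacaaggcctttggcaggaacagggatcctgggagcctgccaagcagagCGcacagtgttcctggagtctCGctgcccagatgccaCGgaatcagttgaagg
ZNF667: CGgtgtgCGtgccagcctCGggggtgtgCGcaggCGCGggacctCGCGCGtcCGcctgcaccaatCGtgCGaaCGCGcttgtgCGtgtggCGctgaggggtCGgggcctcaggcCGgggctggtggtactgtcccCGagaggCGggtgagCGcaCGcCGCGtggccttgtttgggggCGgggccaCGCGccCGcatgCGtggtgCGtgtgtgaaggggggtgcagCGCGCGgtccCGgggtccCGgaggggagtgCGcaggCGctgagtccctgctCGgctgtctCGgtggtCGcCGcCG
ZNF667-AS1: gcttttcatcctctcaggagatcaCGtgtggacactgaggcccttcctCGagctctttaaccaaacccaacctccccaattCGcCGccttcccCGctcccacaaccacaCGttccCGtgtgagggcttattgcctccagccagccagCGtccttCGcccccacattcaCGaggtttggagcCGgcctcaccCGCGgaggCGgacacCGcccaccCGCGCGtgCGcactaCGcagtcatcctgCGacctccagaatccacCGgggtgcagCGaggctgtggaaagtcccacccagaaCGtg
The ZNF667 window holds 42 CG dinucleotides, a number that 5.85% of 35116 promoter windows of the same length reach, where the median is 14. CHCHD2 holds 26, which 30.1% of windows reach, and ZNF667-AS1 holds 24, which 33.9% reach. H19 holds 6, a number reached by 66.3%. The printed ZNF667 and ZNF667-AS1 windows lie 28 bases apart and point away from each other. RefSeq gives ZNF667-AS1 a second start, whose window (chr19:56477874-56478173) overlaps the first, is not printed and holds 21 CG dinucleotides, reached by 39.5% of windows. RefSeq and GENCODE 29 place these starts differently: by the GENCODE 29 spans given above, each gene starts inside the other. CG reads the same on both strands, and its count describes these letters only, since methylation was not measured.

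H19 and IGF2 are neighbouring imprinted genes on chromosome 11. H19 is a non-coding RNA made from the maternal allele and IGF2, a fetal growth factor, is made from the paternal allele, and both are abundant in embryonic mesenchyme and liver. H19 (chr11:1995176-2001470, minus strand) stood at 19.8 and 52.0 CPM in KO and 0.878 and 0.757 in DATG. Its group means were 35.9 ± 22.8 and 0.817 ± 0.0855 CPM (SD, n = 2 each), and the log2 difference was -5.44 (SE 0.64), with a DESeq2 adjusted p of 6.09e-13 and an edgeR adjusted p of 0.817. IGF2 (chr11:2129112-2149603, minus strand), which starts 148 kb away, stood at 5.46 and 23.0 CPM in KO and 63.4 and 329 in DATG, a log2 difference of 3.78 (SE 1.16, DESeq2 adjusted p = 0.0303, edgeR 0.817). For IGF2 the DATG libraries themselves stood far apart, and without DATG library 2 the difference was 2.15. H19 and IGF2 thus differed in opposite directions between the same libraries.

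In 8 of 8 groups of nuclei H19 was lower and IGF2 higher in both DATG libraries than in both KO libraries. In mesenchyme-like nuclei H19 stood at 72.0 and 175 CPM in KO and 3.63 and 0.849 in DATG, and in hepatocyte-like nuclei at 23.6 and 48.2 CPM in KO and 0 and 0.845 in DATG. IGF2 in mesenchyme-like nuclei stood at 19.2 and 92.9 CPM in KO and 192 and 382 in DATG, and in neuron-like nuclei at 1.40 and 6.81 CPM in KO and 14.2 and 64.8 in DATG. The order of the libraries in neurons was that of the whole tumours, and the part of free RNA in those values was not tested. Of 23 tested genes that start within 500 kb of H19, 13 lay above and 4 below. IGF2-AS, transcribed opposite to IGF2 and picked with its values in view, had levels of 2.998 and 5.06 CPM in KO and 7.76 and 18.03 in DATG. No source used here names the strand setting of the counting, so reads of IGF2 and IGF2-AS, or of ZNF667 and ZNF667-AS1 where they overlap, cannot be told apart.

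**Figure D2:**
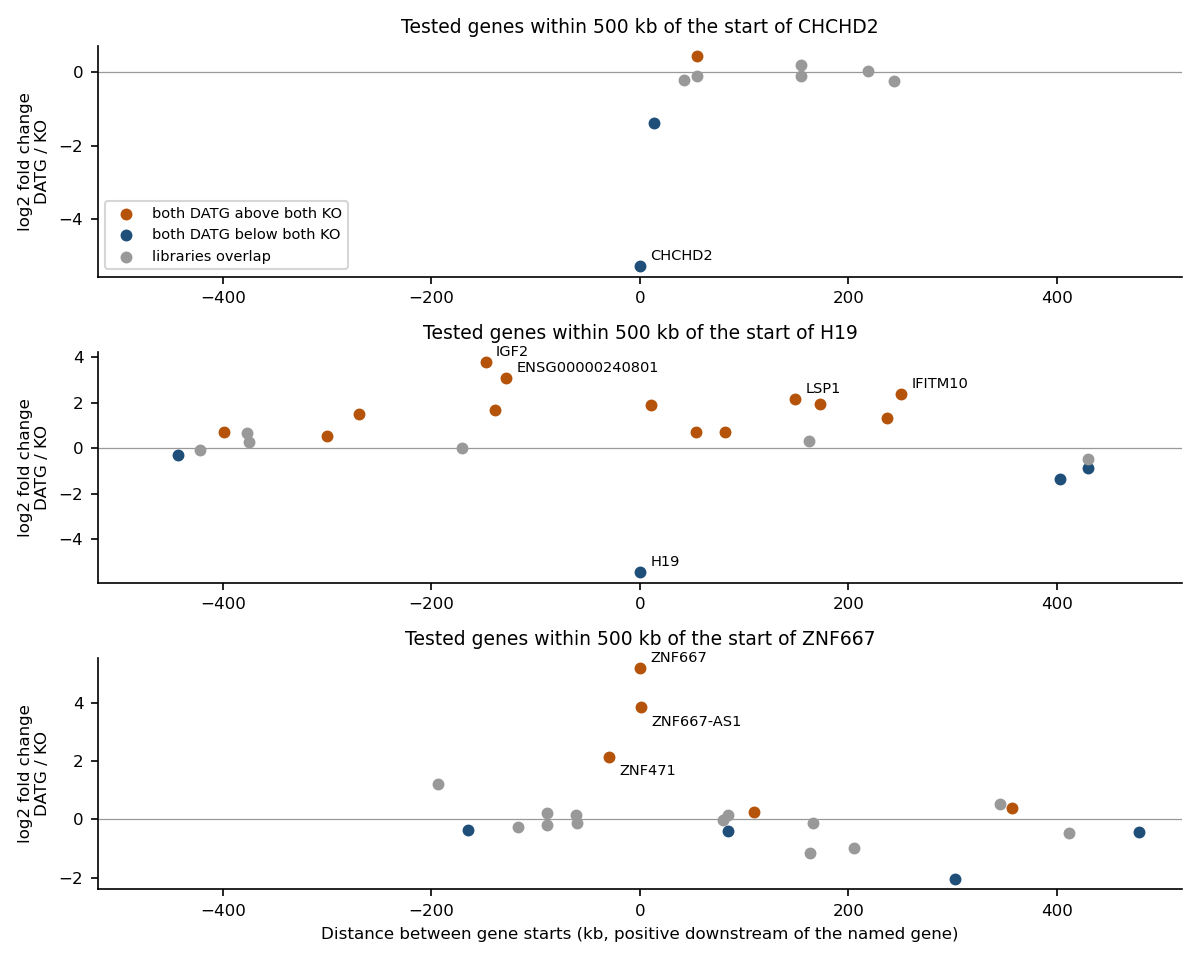
Log2 difference of DATG from KO (edgeR) for tested genes against their distance in kb from the start of CHCHD2, ZNF667 and H19, coloured by whether both DATG libraries lie above both KO libraries (orange), below (blue) or overlap with them (grey). CHCHD2 and H19 have the lowest values in their panels, ZNF667 and ZNF667-AS1 the highest in theirs, and 13 of the 23 genes around H19 are orange.

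The imprinted list gave 10 of 28 members above and 3 below, with a median log2 difference of 0.26, 0.10 without KO library 1, 0.42 without KO library 2 and 0.09 without DATG library 2, beside 0.02 for all genes tested. KCNQ1OT1, the non-coding RNA that silences a neighbouring imprinted domain on the same chromosome, stood at 552 and 758 CPM in KO and 931 and 1196 in DATG. CDKN1C, a cell cycle inhibitor of that domain, stood at 55.0 and 52.6 CPM in KO and 66.9 and 77.6 in DATG. DLK1, a membrane regulator of fetal growth, stood at 63.8 and 219 CPM in KO and 322 and 268 in DATG. In each of these the DATG libraries were higher over all nuclei by margins far narrower than those of IGF2. Among 8 groups of nuclei KCNQ1OT1 lay above in 2 and CDKN1C and DLK1 in 1 each, and the libraries otherwise overlapped. Below were H19, MKRN3 (66.2 and 83.6 CPM in KO and 56.0 and 17.4 in DATG) and SGCE, a sarcoglycan (205 and 188 CPM in KO and 167 and 129 in DATG). Among the 8 groups SGCE lay below in 6, and MKRN3 lay above in 1 and below in 1.

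The whole list taken from the earlier account of KO against WT, the ZNF667 pair and CHCHD2 included, gave 5 of 6 members above and 1 below. FOLH1, a folate hydrolase, stood at 0.411 and 0.590 CPM in KO and 3.17 and 9.17 in DATG, and ZNF585B at 1.77 and 2.09 CPM in KO and 5.51 and 6.77 in DATG. ZNF585A, its near-identical neighbour, whose reads may be split with it, stood at 6.17 and 4.01 CPM in KO and 9.14 and 6.41 in DATG. CHCHD2 was the member below. DESeq2 also called 2 zinc finger genes that no rule had chosen, named here after their values were seen: ZNF229 at 0.145 and 0.393 CPM in KO and 4.32 and 3.16 in DATG and ZNF354C at 1.69 and 0.590 CPM in KO and 8.30 and 7.08 in DATG. Each was higher in both DATG libraries in 8 of 8 groups of nuclei. CEBPZOS, a small gene transcribed opposite to CEBPZ, was among the widest downward gaps, at 36.8 and 32.0 CPM in KO and 9.41 and 0.579 in DATG, and was lower in 8 of 8 groups of nuclei. Its log2 difference was -2.77 (SE 1.25), and -1.88 without DATG library 2.

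**Figure D3:**
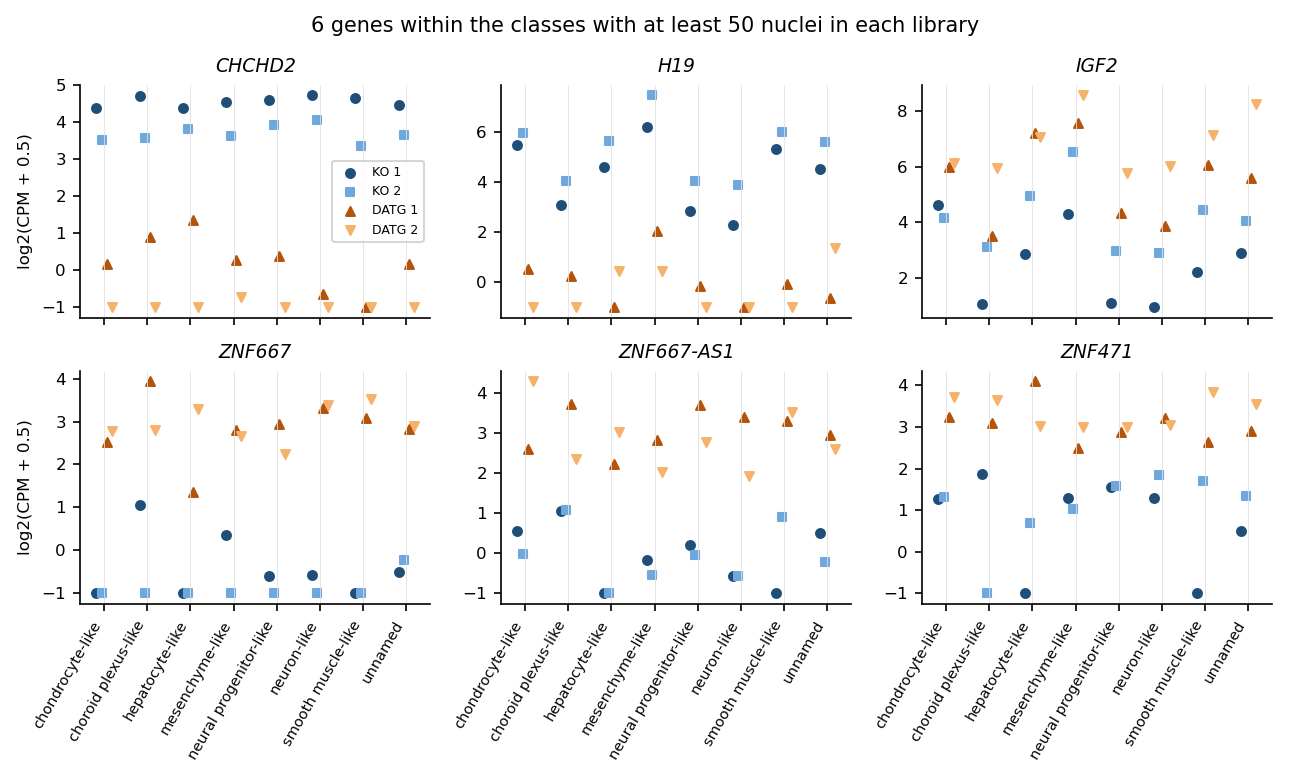
Level as log2 of plain CPM plus 0.5 in each of 8 groups of nuclei, for CHCHD2, H19, IGF2, ZNF667, ZNF667-AS1 and ZNF471, with 1 point for each KO and DATG library. CHCHD2 and H19 are lower and the other 4 genes higher in both DATG libraries in all 8 groups of nuclei.

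All 13 mitochondrially encoded genes lay above, with a median log2 difference of 2.34. These genes specify core subunits of the respiratory chain, and in nuclei their transcripts are carried over from cytoplasm. Their share of human UMIs was 0.163 and 0.106% in KO and 0.479 and 0.522 in DATG. The DATG mean of 0.501 ± 0.0304% was 3.72 times the KO mean of 0.135 ± 0.0399% (SD, n = 2 each, exact permutation p = 0.333 two-sided, the smallest that 6 arrangements allow). MT-ND3 and MT-ND1, both subunits of complex I, stood at 51.7 and 41.0 CPM in KO and 305 and 438 in DATG and at 76.7 and 46.4 CPM in KO and 289 and 388 in DATG. MT-CO1, a subunit of cytochrome oxidase, stood at 260.4 and 206 CPM in KO and 695 and 1093 in DATG. MT-ND3 had a log2 difference of 3.002 (SE 0.32, DESeq2 adjusted p = 3.20e-08, edgeR 0.817). Of 35 nuclear genes of the respiratory chain 6 lay above (17.1%, beside 20.6% of all genes tested) and 0 below. Their median of 0.00 lay between -0.60 without DATG library 1 and 0.41 without DATG library 2, so the DATG libraries went opposite ways.

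Within classes the mitochondrial share was higher in both DATG libraries in 6 of the 8 groups of nuclei. It was 0.139 and 0.0991% in KO and 0.339 and 0.219 in DATG in neuron-like, 0.166 and 0.146% in KO and 0.514 and 0.337 in DATG in mesenchyme-like and 0.206 and 0.118% in KO and 1.04 and 0.886 in DATG in hepatocyte-like nuclei. Choroid plexus-like nuclei, at 0.457 and 0.108% in KO and 0.689 and 0.156 in DATG, and smooth muscle-like nuclei, at 0.408 and 0.149% in KO and 0.635 and 0.174 in DATG, overlapped between the groups. Mouse nuclei of the same libraries numbered 191 and 324 in KO and 87 and 547 in DATG. The mitochondrial share of their mouse UMIs was 0.688 and 0.499% in KO and 2.08 and 1.31 in DATG. The part in the human difference of whatever the human and mouse nuclei share was not tested. With the 13 genes left out, 5408 genes lay above and 5628 below.

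Globin genes lay above as a group, 6 of 7 tested erythroid markers, from very few nuclei. HBE1, the embryonic beta-type globin, stood at 0.121 and 0.762 CPM in KO and 41.9 and 23.1 in DATG, a log2 difference of 6.19 (SE 1.02, DESeq2 adjusted p = 2.94e-10, edgeR 0.817). HBG2, a fetal globin, stood at 0.193 and 0.885 CPM in KO and 27.9 and 3.87 in DATG, and HBA2, an alpha globin, at 0.0242 and 0.123 CPM in KO and 11.7 and 1.34 in DATG. HBG1 and HBG2, and likewise HBA1 and HBA2, are near-identical copies, and the annotated span of HBG2 reaches into HBE1, so their split is uncertain. Human globin UMIs totalled 37 and 111 in KO and 5382 and 742 in DATG. Nuclei with at least 5 of them numbered 0 and 1 in KO and 6 and 12 in DATG, and these 18 of 18193 DATG nuclei held 97.1% of the globin UMIs of library 1 and 87.7% of those of library 2. The difference in globins is thus one of 18 barcodes against 1.

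**Figure D4:**
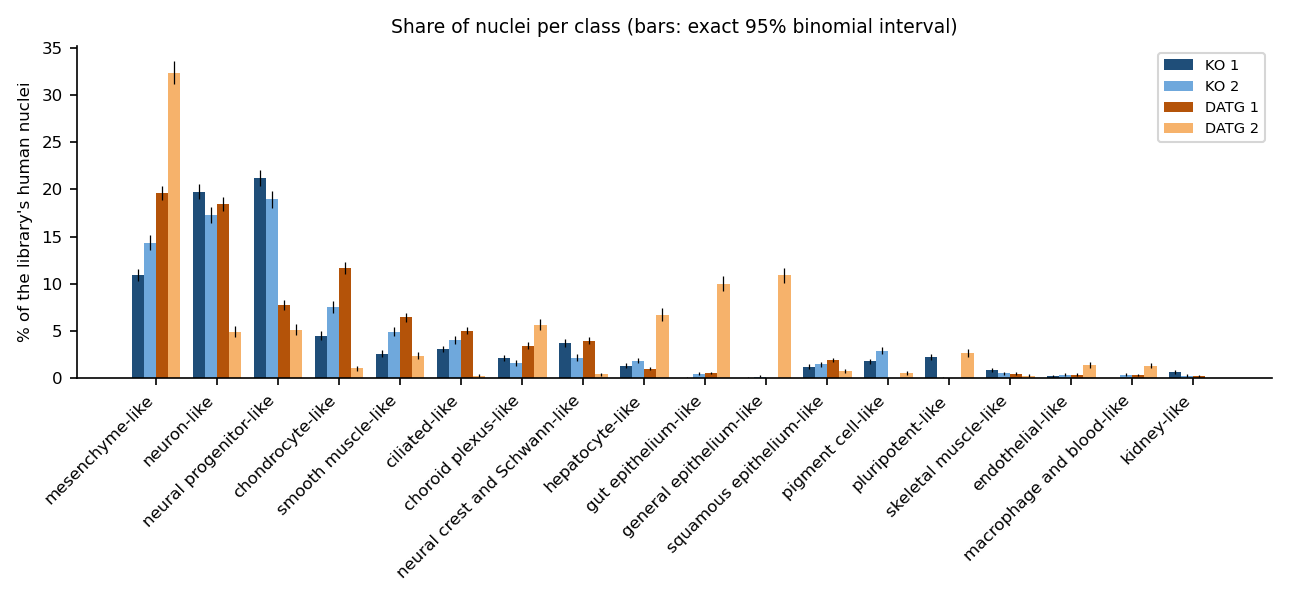
Percent of each library's human nuclei, doublets left out, in each marker-named class, with 1 bar for each KO and DATG library and lines for exact 95% binomial intervals. Neural progenitor-like nuclei are lower in both DATG libraries and mesenchyme-like nuclei higher, while gut epithelium-like nuclei are abundant in DATG library 2 only.

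The make-up of the tumours differed between the groups, and more so between the DATG libraries. Of 33445 nuclei clustered after calling doublets, neural progenitor-like nuclei made up 21.2 and 18.95% in KO and 7.73 and 5.16 in DATG. The 95% exact intervals, which cover counting error only, ran from 18.1 to 19.9% in the lower KO library and 7.24 to 8.25% in the higher DATG library. Mesenchyme-like nuclei made up 10.9 and 14.4% in KO and 19.6 and 32.3 in DATG, without overlap between the groups. The largest cluster of that class was cluster 2 in KO library 1, cluster 33 in KO library 2 and DATG library 2, and cluster 20 in DATG library 1, so values within mesenchyme-like nuclei compare different clusters. With coarser clusters (resolution 1, chosen after seeing the data) the shares were 16.3 and 10.8% in KO and 26.4 and 12.2% in DATG, which overlap. Neuron-like nuclei, at 19.8 and 17.3% in KO and 18.5 and 4.90 in DATG, overlapped, with DATG library 2 low and DATG library 1 between the KO libraries. Pigment cell-like nuclei were rarer in DATG, at 1.80 and 2.92% in KO and 0.0183 and 0.570 in DATG. With 2 libraries per group none of these shares can reach an exact permutation p under 0.333.

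DATG library 2 held epithelial classes that were scarce in the other 3 libraries. Gut epithelium-like nuclei made up 0.0754 and 0.470% in KO and 0.549 and 10.0 in DATG, and general epithelium-like nuclei 0.0539 and 0.188% in KO and 0.0274 and 10.9 in DATG. Hepatocyte-like nuclei made up 1.34 and 1.87% in KO and 1.03 and 6.75 in DATG, and with the coarser clusters 3.25 and 0.632% in KO and 0.311 and 4.04 in DATG, where KO library 1 was near DATG library 2. Chondrocyte-like nuclei went the other way between the DATG libraries, at 4.53 and 7.53% in KO and 11.7 and 1.05 in DATG. Unnamed clusters held 23.5 and 20.6% in KO and 18.5 and 13.2 in DATG. In bulk sums over a library, fewer cells of a type and less RNA per cell cannot be told apart, and that holds for every whole-library value below.

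Regulators of the early nervous system lay below KO. These transcription factors set up forebrain, eye field and neural progenitors. The early ectoderm list gave 0 of 23 members above and 15 below, with a median log2 difference of -0.81. The neural progenitor markers gave 0 of 15 members above and 10 below (median -0.86, -0.49 without KO library 1 and -1.42 without DATG library 1), and their summed level was 1274 and 1276 CPM in KO and 960.0 and 415 in DATG. These markers also named the neural progenitor-like class, so their count describes its share rather than adds to it. PAX6, SOX1, SOX2, SOX3, ZIC1, ZIC2 and PAX3 belong to both lists, so the counts of the lists are not independent. NR2E1, an orphan nuclear receptor of neural stem cells, stood at 10.2 and 16.4 CPM in KO and 2.32 and 1.56 in DATG, a log2 difference of -2.77 (SE 0.47, DESeq2 adjusted p = 4.29e-04, edgeR 0.817). LHX2, a homeodomain factor of forebrain and eye, stood at 23.6 and 22.7 CPM in KO and 8.51 and 2.89 in DATG, and PAX6, required for eye and forebrain, at 39.1 and 41.1 CPM in KO and 21.0 and 15.0 in DATG. The low level thus reached forebrain factors in both DATG libraries, with library 2 the lower for each of these 3 genes.

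ZIC1, a zinc finger factor of the dorsal neural tube, stood at 128 and 190.3 CPM in KO and 83.2 and 54.8 in DATG, and WNT8B, a forebrain WNT ligand, at 9.02 and 9.90 CPM in KO and 3.06 and 2.63 in DATG. Retina markers gave 1 of 10 members above and 7 below (median -1.46), with SIX3, an eye field factor, at 15.5 and 20.9 CPM in KO and 8.91 and 4.36 in DATG. Pigment cell markers gave 0 of 10 members above and 7 below (median -1.08). The pigment cell markers also named the pigment cell-like class, so their count describes its share rather than adds to it, while no class was named from the retina list. The mesenchyme, hepatocyte, gut epithelium, macrophage and blood, smooth muscle, choroid plexus and kidney markers below also named classes. Their counts and the shares of those classes are not independent. PMEL, the fibril protein of melanosomes, stood at 29.4 and 33.8 CPM in KO and 8.42 and 7.39 in DATG, with a log2 difference of -2.00 (SE 0.26, DESeq2 adjusted p = 4.53e-04, edgeR 0.817). Tyrosinase, TYR, the first enzyme of melanin synthesis, stood at 34.9 and 46.1 CPM in KO and 11.2 and 12.2 in DATG, DCT, another enzyme of that pathway, at 23.2 and 43.9 CPM in KO and 2.66 and 7.26 in DATG, and the channel TRPM1 at 30.2 and 55.4 CPM in KO and 3.98 and 10.9 in DATG. MMRN1, which encodes a large protein stored in platelets and endothelium, was the last of the 12 widest downward gaps, at 30.03 and 45.8 CPM in KO and 12.6 and 9.26 in DATG.

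Within neural progenitor-like nuclei themselves the genes of these lists did not all lie below. The clusters behind that class differed: cluster 10 held most of it in DATG library 2, and clusters 5, 10 and 11 shared it in KO. Cluster 5 held 549 of 1971 and 759 of 1410 nuclei of the class in KO and 201 of 845 and 32 of 299 in DATG. RHEX, NR2E1 and WNT8B were among the top genes of cluster 5, and the part of its share in their levels was not tested. In that class RHEX, a membrane protein known from erythroid growth, stood at 336 and 400.0 CPM in KO and 124 and 25.6 in DATG, and over all nuclei at 101 and 123 CPM in KO and 18.8 and 6.77 in DATG, a log2 difference of -3.12 (SE 0.57, DESeq2 adjusted p = 2.43e-04, edgeR 0.817). Neural progenitor-like nuclei held 57.9 and 59.7% of RHEX UMIs in KO. NR2E1 in the class stood at 35.6 and 55.4 CPM in KO and 14.5 and 13.9 in DATG. Both DATG libraries lay below both KO libraries for RHEX and NR2E1, and likewise for LHX2, at 34.8 and 48.8 CPM in KO and 16.1 and 7.47 in DATG, SIX3 and WNT8B. SOX2, a factor of neural and pluripotent stem cells, went the other way in the class, at 138 and 109.9 CPM in KO and 167 and 186 in DATG. The groups overlapped there for ZIC1, HES5, SOX1, SOX3 and DLL1. PAX6, at 80.5 and 83.3 CPM in KO and 73.9 and 74.7 in DATG, was below on this scale and overlapped with TMM scaling within the class.

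NOTCH signalling, which keeps neural progenitors dividing, gave 3 of 19 members above and 9 below, with a median of -0.23, -0.11 without KO library 1. The effector HES5 stood at 39.4 and 32.3 CPM in KO and 18.8 and 3.70 in DATG and the ligand DLL1 at 29.04 and 27.3 CPM in KO and 18.9 and 20.6 in DATG. The effectors HES1, at 28.4 and 28.8 CPM in KO and 33.0 and 38.7 in DATG, and HEY1, at 5.13 and 5.04 CPM in KO and 6.77 and 9.57 in DATG, lay above instead, so members of the list split by gene. G2 and M phase genes gave 1 of 26 members above and 11 below (median -0.12, -0.04 without DATG library 1 and -0.25 without DATG library 2). NUF2, a kinetochore protein, stood at 68.0 and 55.7 CPM in KO and 46.4 and 38.4 in DATG, and CENPF, another, at 157 and 135 CPM in KO and 116 and 123 in DATG.

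Genes of connective tissue lay above. Mesenchyme markers gave 8 of 12 members above and 0 below (median 1.34, 0.85 without KO library 1 and 2.09 without KO library 2, summed level 1488 and 3829.9 CPM in KO and 6681 and 10844 in DATG), and collagens gave 16 of 40 members above and 0 below (median 0.66, 0.39 without KO library 1). COL1A1 and COL1A2, the chains of type I collagen, stood at 160.5 and 665 CPM in KO and 1494 and 2303 in DATG and at 316 and 816 CPM in KO and 1536 and 2770.2 in DATG. COL3A1, the type III chain, stood at 255 and 921 CPM in KO and 1588 and 2847 in DATG. KO library 2 was nearer to DATG than KO library 1 for each of the 3, which belong to both lists. COMP, a cartilage and tendon matrix protein, stood at 0.677 and 3.71 CPM in KO and 14.4 and 27.3 in DATG, a log2 difference of 3.25 (SE 0.95), and S100A4, a calcium-binding protein of fibroblasts, at 3.87 and 6.68 CPM in KO and 19.5 and 34.0 in DATG. COMP differed by 2.49 without KO library 1 and by 4.94 without KO library 2.

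Collagen transcripts lay above within classes that should not make them as well as within those that do. In mesenchyme-like nuclei COL1A1 stood at 585 and 2386 CPM in KO and 4077 and 3869.5 in DATG, and in neuron-like nuclei, which should lack it, at 83.2 and 269 CPM in KO and 576 and 657 in DATG. In both classes KO library 1 was lowest and the DATG libraries were highest, and free RNA released on dissociation would be read in such nuclei. Its part in the values of collagens, IGF2 and other abundant genes within classes was not tested. The median UMI count per human nucleus was 2690.0 and 3917 in KO and 2664 and 2757 in DATG.

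Early mesoderm regulators gave 5 of 18 members above and 0 below (median 0.61, 0.35 without DATG library 1). Early endoderm regulators gave 4 of 17 members above (23.5%, near the 20.6% of all genes tested) and 1 below (median 1.11, -0.21 without DATG library 2). Hepatocyte markers gave 6 of 12 members above and 0 below (median 1.14, 0.68 without DATG library 2), with AFP, the fetal serum protein, at 32.8 and 65.1 CPM in KO and 92.4 and 141 in DATG and APOA1, the apolipoprotein of high-density lipoprotein, at 11.2 and 9.14 CPM in KO and 17.2 and 22.4 in DATG. Gut epithelium markers gave 5 of 13 members above and 0 below, with a median of 2.88 that was 0.56 without DATG library 2. CDX2, the intestinal homeobox factor, stood at 0.508 and 0.467 CPM in KO and 1.04 and 10.2 in DATG. Macrophage and blood markers gave 6 of 10 members above and 0 below (median 1.10, 1.68 without KO library 2 and 0.72 without DATG library 2, summed level 13.8 and 23.4 CPM in KO and 33.7 and 48.7 in DATG), with MRC1, the mannose receptor, at 0.653 and 1.67 CPM in KO and 3.40 and 4.76 in DATG and F13A1, a coagulation subunit of tissue macrophages, at 7.47 and 8.55 CPM in KO and 16.4 and 20.03 in DATG. Over all nuclei the level of CDX2 was high in DATG library 2 alone, whereas AFP, APOA1, MRC1 and F13A1 were high in both DATG libraries. Among 8 groups of nuclei AFP, APOA1 and F13A1 each lay above in 1, MRC1 in 2 and CDX2 in 3. APOA1 lay below in 1 and F13A1 in 2, and the libraries otherwise overlapped. In neuron-like nuclei F13A1 stood at 15.4 and 12.9 CPM in KO and 7.81 and 1.15 in DATG, scaled by TMM within the class.

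**Figure D5:**
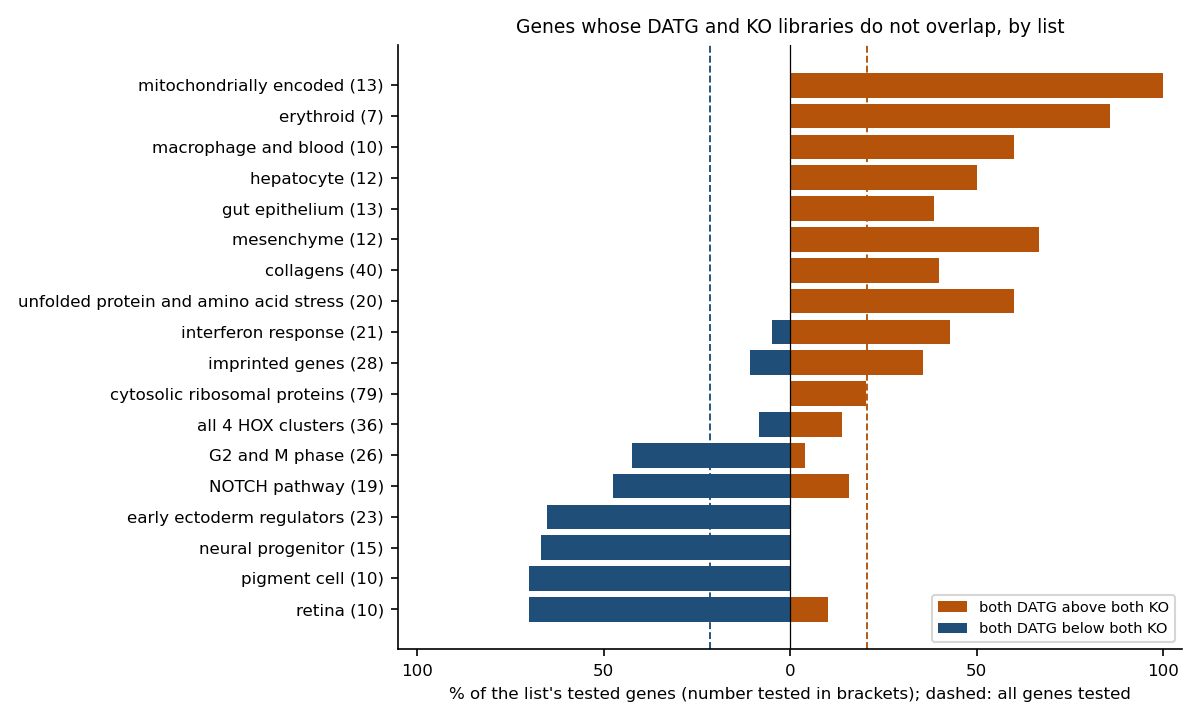
For each of 18 gene lists, the percent of its tested genes with both DATG libraries above both KO libraries (orange, to the right) or below (blue, to the left), with dashed lines at 20.6% and 21.4% for all genes tested. The mitochondrial list has 13 of 13 genes above, and the early ectoderm, neural progenitor and pigment cell lists have members below and none above.

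Stress genes of the endoplasmic reticulum and of amino acid shortage gave 12 of 20 members above and 0 below, with a median of 0.44 and a positive median without any single library. ATF4, the factor that drives this response, stood at 32.5 and 37.2 CPM in KO and 52.2 and 132 in DATG. Its target TRIB3 stood at 2.64 and 2.14 CPM in KO and 4.05 and 4.59 in DATG, and HERPUD1, which acts in degradation of misfolded proteins, at 14.8 and 16.8 CPM in KO and 23.7 and 39.6 in DATG. HERPUD1 was higher in both DATG libraries in 8 of 8 groups of nuclei, ATF4 in 7 and TRIB3 in 6. Other members above over all nuclei mostly overlapped within groups: XBP1 and CHAC1 were higher in 3 of 8, and HSPA5 and PHGDH in 2. The mitochondrial share moved with these values, and its part was not tested.

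SIRT6, the described partner of LNCPRESS1, stood at 8.83 and 9.34 CPM in KO and 8.17 and 5.79 in DATG. CDKN1A, the cell cycle inhibitor p21, stood at 2.25 and 2.24 CPM in KO and 2.79 and 4.90 in DATG, and BTG2, an antiproliferative gene, at 12.4 and 12.3 CPM in KO and 8.33 and 8.19 in DATG. The groups did not overlap for these 3 genes over all nuclei, and edgeR called none of them. Among 8 groups of nuclei SIRT6 lay above in 1 and below in 1, CDKN1A above in 3 and BTG2 below in 4, and otherwise overlapped. CDKN1A and BTG2 belong to a list of p53 targets with 6 of 26 members above (23.1%) and 2 below (7.69%), beside 20.6% and 21.4% of all genes tested. The median of that list was 0.28, and -0.08 without DATG library 2. Interferon response genes gave 9 of 21 members above and 1 below (median 0.34, -0.16 without DATG library 1 and 0.65 without DATG library 2), and the 36 tested HOX genes, which pattern the body axis, gave 5 above and 3 below.

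Within classes, tests were made in mesenchyme-like, neural progenitor-like and neuron-like nuclei, which had the most nuclei in their smallest library. edgeR called 0 genes in each, of 18259, 17135 and 18312 tested, with 289, 513 and 356 at an unadjusted p under 0.05. DESeq2 called 9 higher and 2 lower, 1 and 0, and 5 and 2. The shares of genes above and below were 16.2% and 15.7% in mesenchyme-like, 16.4% and 18.1% in neural progenitor-like and 15.9% and 17.9% in neuron-like nuclei. The genes named next are among those with wide gaps in their class at a mean of at least 20 CPM, were chosen after their values were seen, and are given as CPM scaled by TMM within the class. DELEC1 in mesenchyme-like nuclei stood at 164 and 227 CPM in KO and 54.7 and 10.5 in DATG, and GRIA2, a glutamate receptor subunit, at 45.3 and 42.6 CPM in KO and 17.0 and 8.43 in DATG. In neural progenitor-like nuclei TGFBI, a matrix protein induced by TGF-beta, stood at 6.89 and 13.8 CPM in KO and 34.2 and 42.7 in DATG, PTPRT, a receptor phosphatase, at 16.1 and 22.4 CPM in KO and 52.7 and 101 in DATG and ANKRD45 at 86.3 and 62.7 CPM in KO and 27.0 and 15.7 in DATG. In neuron-like nuclei SLC5A7, the choline transporter of cholinergic neurons, stood at 57.1 and 61.4 CPM in KO and 30.4 and 12.7 in DATG, and UNC13C, a synaptic vesicle priming protein, at 39.1 and 36.4 CPM in KO and 75.5 and 91.0 in DATG. The clusters behind that class differed too: cluster 19 held 212 of 1833 and 365 of 1286 nuclei in KO and 445 of 2020 and 11 of 284 in DATG. SLC5A7 was a top gene of cluster 28, which held 84 and 85 nuclei in KO and 100 and 10 in DATG. Removing DATG library 1 gave 41 higher and 276 lower edgeR calls in mesenchyme-like, 904 and 1860 in neural progenitor-like and 871 and 1870 in neuron-like nuclei. Removing DATG library 2 gave 0 and 0, 404 and 159, and 108 and 58.

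GABRP rested on 1 library. It encodes a GABA receptor subunit of epithelia, had the largest fold that DESeq2 called, and stood at 0.846 and 1.28 CPM in KO and 0.923 and 228 in DATG, with 88.8% of its UMIs in DATG library 2 in general epithelium-like nuclei. Its log2 difference was 6.75 with all 4 libraries and -0.21 without DATG library 2. CXCL11, an interferon-induced chemokine, stood at 1.74 and 1.499 CPM in KO and 0.0450 and 0.0890 in DATG, and MFAP5, a microfibril protein, at 0.387 and 0.909 CPM in KO and 5.27 and 3.96 in DATG. GABRP, CXCL11 and MFAP5 are named because DESeq2 called them and were chosen after their values were seen. Of the 44 genes that DESeq2 called, 43 had groups that did not overlap, and GABRP was the exception. Of the 24 genes with the widest gaps, 4 (H19, CHCHD2, CEBPZOS and ZNF471) had DATG and KO libraries apart in 8 of 8 groups of nuclei and 15 in at least 6. These genes were chosen by their gap in the same libraries, so the counts are a description only. The share of all genes apart in as many groups was not counted.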

How the data were processed

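Single-nucleus RNA was read in 4 libraries, KO and DATG, 2 each, grouped by sample title. The WT libraries entered no test here and are given as levels only. Per the labels' protocols, nuclei were isolated on a Singulator 200 and captured with 10x Genomics 3' v3.1 chemistry. The authors deposited raw UMI counts per gene and barcode, not normalized, for which the submitters' processing notes name Cell Ranger 8.0.1 and the file headers 8.0.0. Human coordinates are GENCODE 29 on GRCh38. Mouse features are prefixed GRCm39 while the notes name GRCm38, so no mouse coordinate is used. How introns and strand were counted is not given in those sources.

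For each library the counts of its human nuclei were added up and tested with edgeR 4.0.16 (robust quasi-likelihood, TMM, default low-count filter, Benjamini-Hochberg adjustment, R 4.3.3). DESeq2 1.42.0 was the alternative. The tests were also tried on simulated counts. Doublets were the top 0.8% per 1000 nuclei by Scrublet score and were left out only for clustering (scanpy 1.11.5, 2000 genes, 30 components, 20 neighbours, Leiden resolution 2) and class values. Resolution 2 and a rule that a name needs its markers in each library were set after seeing the data. Of 37 clusters 29 were named, in 18 classes, from at least 3 markers 2-fold above other clusters. Mitochondrial shares were compared with an exact permutation test. Intervals are Clopper-Pearson and, like the limit of 3 counts behind a 0, cover counting error only.

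The members, gene lists and rules were chosen with earlier results of these data known. Named genes are up to 12 per direction by gap with a mean of at least 5 CPM and a symbol other than a clone, LINC or antisense name, up to 10 called genes per direction, the 3 members of each list with the smallest unadjusted p, list members whose groups do not overlap, and LNCPRESS1. Within a class up to 5 called genes per direction could be named, and edgeR called none. Some items are not reported here.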

Additional observations from a re-analysis of the deposited data

Results flagged for a closer look

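In the mouse nuclei, which no comparison above is about, mitochondrially encoded genes took 2.08% of mouse UMIs in DATG library 1 and 1.31% in DATG library 2. The KO libraries held 0.688 and 0.499%, and the WT libraries 0.211 and 0.377%. Both DATG libraries were thus above all 4 others in mouse nuclei, as they were in the human nuclei. Mouse nuclei were few, at 87 and 547 in DATG, 191 and 324 in KO and 101 and 139 in WT. The cause was not tested.

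SNTG1, a syntrophin of the nervous system, differed in opposite directions in 2 classes. On the scale of CPM scaled by TMM within each class, it stood in neural progenitor-like nuclei at 34.1 and 23.2 CPM in KO and 79.3 and 92.1 in DATG, a gap of 1.20, and in mesenchyme-like nuclei at 32.0 and 30.5 CPM in KO and 15.1 and 5.01 in DATG, a gap of 0.99. Every DATG library was above every KO library in the first class and below in the second. The difference between the classes was not tested, and over all nuclei the groups stood at 99.8 and 111 CPM in KO and 109.7 and 64.1 in DATG.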

How the results depend on the processing

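With each library left out in turn, edgeR called from 0 to 3559 genes higher and from 0 to 5353 lower, and from 7473 to 11650 genes lay above and from 7752 to 12980 below. DESeq2 called 33 higher and 11 lower, and in classes 9 and 2 (mesenchyme-like), 1 and 0 (neural progenitor-like) and 5 and 2 (neuron-like). Counts without 1 library depend by construction on a single sample in 1 group. In classes the counts without 1 library ran from 0 to 41 higher and 0 to 276 lower (mesenchyme-like), 0 to 904 and 0 to 1860 (neural progenitor-like) and 0 to 871 and 0 to 1870 (neuron-like). The log2 difference of LNCPRESS1 was 0.76 with all 6 libraries in the fit. Other counts above and below were 4973 and 5969 with DESeq2's size factors and 6311 and 7622 with no filter on low counts. The mitochondrial difference was 0.360 with at least 1000 UMIs per nucleus and 0.376 without doublets. Of 109 named genes 3 changed sign: GABRP and SNTG1 without DATG library 2, and UBE2C with plain library totals (-0.017, from 0.11). Without each library in turn the log2 difference of GABRP ran from -0.21 to 7.74 and that of SNTG1 from -0.72 to 0.053. Of 55 lists, 30 kept the sign of their median without each library in turn, while 11 changed it without DATG library 1 and 14 without DATG library 2. Labels do not say that replicate numbers pair the samples. Deviations of same-numbered libraries correlated at r = 0.416 across genes, and a replicate block gave 0 calls in either direction, with 6 list medians changing sign. Depth limits LNCPRESS1 and genes under about 1 CPM.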

Other observations

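Further lists also held genes whose DATG and KO libraries did not overlap. Beside them, 20.6% of all genes tested lay above and 21.4% below. Immediate early and heat shock genes gave 1 of 24 members above and 7 below (median log2 difference -0.15, -0.39 without KO library 1, 0.11 without KO library 2, 0.06 without DATG library 1 and -0.67 without DATG library 2). The members below were DNAJB1, HSPA1A, HSPH1 and HSP90AA1, which are chaperones or their partners, and NR4A1, EGR1 and EGR3, which are transcription factors induced within minutes of a stimulus. Smooth muscle markers gave 5 of 9 members above and 0 below (median 0.86, 0.53 without KO library 1 and 0.47 without DATG library 1), with MYOCD, DES, ACTA2, LMOD1 and CNN1 above. Choroid plexus markers gave 5 of 11 members above and 1 below (median 0.76, 0.10 without DATG library 1), and choroid plexus-like nuclei made up 2.12 and 1.63% in KO and 3.47 and 5.66 in DATG.

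WNT pathway genes gave 9 of 33 members above (27.3%) and 3 below (9.09%), with a median of 0.27, 0.07 without KO library 2 and -0.06 without DATG library 2. The ligands WNT5A, WNT6 and WNT11 and the feedback genes AXIN2 and NKD1 lay above, while the ligands WNT7B and WNT8B lay below. FGF and ERK pathway genes gave 4 of 27 members above (14.8%) and 7 below (25.9%), shares near those of all genes tested. Their median was -0.16, -0.07 without KO library 2 and -0.08 without DATG library 1, with FGF8, FGF17 and FGF3 below and FGF7 above. BMP and TGF-beta pathway genes gave 8 of 29 members above and 2 below (median 0.31, -0.02 without DATG library 2), with the ligands BMP4, BMP5, GDF6, GDF7 and TGFB3 above and the targets ID1 and ID4 below. Cytosolic ribosomal protein genes gave 16 of 79 members above (20.3%, near the 20.6% of all genes tested) and 0 below. Their median was 0.52, 0.84 without KO library 1, 0.24 without KO library 2, -0.36 without DATG library 1 and 1.01 without DATG library 2.

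Pluripotent-like nuclei made up 2.24 and 0.0269% in KO and 0.00915 and 2.66 in DATG, and 1 library of each group held most of them. Kidney markers gave 0 of 7 members above and 2 below (median -0.86, -0.51 without KO library 1, -3.08 without DATG library 1 and -0.43 without DATG library 2), with PAX2 and NPHS1 below. Macrophage and blood-like nuclei made up 0.0108 and 0.403% in KO and 0.311 and 1.33 in DATG and endothelial-like nuclei 0.269 and 0.390% in KO and 0.403 and 1.38 in DATG, with the highest share of both in DATG library 2. Ciliated-like nuclei, at 3.08 and 4.03% in KO and 5.06 and 0.259 in DATG, were scarce in that library alone.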
